A study of Drosophila melanogaster with 9 samples.

Results

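RNA recovered with Larp from the Drosophila ovary was measured in 3 anti-FLAG IP libraries and 3 input libraries, which make up 6 of the 9 libraries of the series. They were taken by the antibody that the labels give for each library. All of them came from ovaries of genotype larp::GFP::FLAG, dissected 1 to 3 days post-eclosion, so the input and the control carried the tagged allele too. Anti-FLAG IP is RNA recovered from the lysate with an antibody against the tag, and input is the 10% of the lysate kept aside for RNA extraction. The other 3 libraries, IgG control, hold RNA recovered with mouse IgG and are given as the background of the procedure. No untagged line was part of these libraries. The labels do not say whether the 3 libraries of a group came from separate flies or dissections, so p-values measure only the spread between these samples, which may be technical. The question asked of the data was which functional classes of transcripts, beyond the ribosomal protein genes, were over- or under-represented with Larp.

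Larp is the fly member of the La-related protein 1 family. Its mammalian counterpart, LARP1, binds the cap and the 5′ terminal oligopyrimidine (TOP) tract that opens the mRNAs of ribosomal proteins and of several translation factors, and it acts downstream of the TOR complex 1 kinase. Translation initiates when the small ribosomal subunit, carrying the scaffold complex eIF3, is brought to a capped mRNA. In the ovary, growing germ cells make large numbers of ribosomes, and much of their gene regulation acts on translation.

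The 6 libraries held between 11396367 and 13840805 counts. Values per library are normalised read counts (CPM), each library's counts divided by its total after TMM scaling of all 9 libraries, in the order of replicates 1, 2 and 3. A count of 3, the most that a 0 allows, was 0.217 to 0.263 CPM of the unscaled total, for counting error only. Levels are not divided by transcript length, so they are compared between libraries and not between genes. Log2 fold changes are from edgeR's quasi-likelihood test with the replicate number as a block. Genes with a Benjamini-Hochberg adjusted p below 0.05 and a fold change of 2 or more either way are referred to as called. Where a gene is said to be at a value without a unit, the value is its log2 fold change over input. Same-numbered libraries deviated together in the 3 pairs, which is given with the processing. The ovary label was met by its markers. The 6 germline markers found in the files, among them osk, grk and bru1, summed to 3150.5 to 4386 CPM in anti-FLAG IP, 3216 to 4002 in the IgG control and 3508 to 3950.3 in input. The 6 follicle cell markers summed to 4120.0 to 7048 CPM in anti-FLAG IP, 4300.2 to 5802 in the IgG control and 2971 to 5009 in input. Neuron markers summed to at most 7.22 CPM in any library. Replicate 3 stood apart in the size of its differences. The median log2 ratio of the ribosomal protein genes was 3.28 and 3.72 in the first 2 pairs and 2.02 in the pair of replicate 3.

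The transcript of the bait was higher in anti-FLAG IP in every pair. larp (FBgn0261618), which lies on the minus strand of chromosome 3R from 28318162 to 28336440 in BDGP6.54, was at 290.0, 308 and 733 CPM in anti-FLAG IP, at 125, 155 and 434 CPM in IgG control and at 121, 162 and 365 CPM in input. Replicate 3 was the highest in each group, so that the groups overlapped while anti-FLAG IP was above input in each pair. The log2 fold change against input was 1.08 ± 0.18 (SE, adjusted p = 3.88e-04 by edgeR). Without the block it was 1.05 and missed the threshold (adjusted p by edgeR = 0.486). Without replicate 1 it fell under the minimum fold, at 0.98 (adjusted p by edgeR = 0.0239). The other members of the La family, among them Larp4B, were not called. Larp4B had 275, 294 and 319.7 CPM in anti-FLAG IP against 263, 268 and 239 in input, a log2 fold change of 0.22 (adjusted p = 0.551 by edgeR).

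Of 7575 genes tested, 166 were higher in anti-FLAG IP (2.19%) and 75 were lower (0.990%). The higher genes were dominated by translation. Of the 166, 76 were cytoplasmic ribosomal protein genes, and 90 lay outside that set, or 1.20% of the 7496 other genes. The set was matched by symbol, and 10 of the 90 had no symbol and could not be placed in any class, so whether they belong to the set is not known here. Among the genes with a symbol, 80 of 7316, or 1.09%, were higher outside the set. All 75 lower genes lay outside it (1.00%). Moving the same way in all 3 pairs were 165 of the 166 higher and 75 of the 75 lower genes. They were called on these same pairs, so the choice of genes favours this and it adds no support. Over the genes tested, the log2 fold change had a median of -0.01, and 1384 of them had an unadjusted p under 0.05. Without the replicate block the test gave 139 higher and 19 lower genes, and the 19 were among the 75. Scaling by total counts moved the median of all genes to -0.92, and 102 genes were then higher and 2575 lower. Higher genes were 68.9% of the calls under TMM scaling and 3.81% under total counts, so the statements below are relative to the bulk of the genes. Total-count scaling ended the higher calls, named below, of larp, bt, eIF3e, eIF1A, eEF1beta, eEF1gamma, Non1, nop5, CG4364, RpL24-like, mRpS28, Lsm12a, shu, SoYb, rhi, Yp1, stv, Uhg5, LRP1, mgl, kug, LanA, vkg, HUWE1, Bruce, puf, Grx3, Mpcp2, Ddx56, apolpp, eIF3b, eIF3c, eIF3h and Sdb, through the minimum fold or the test, with adjusted p by edgeR between 0.00341 and 0.793.

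**Figure D1:**
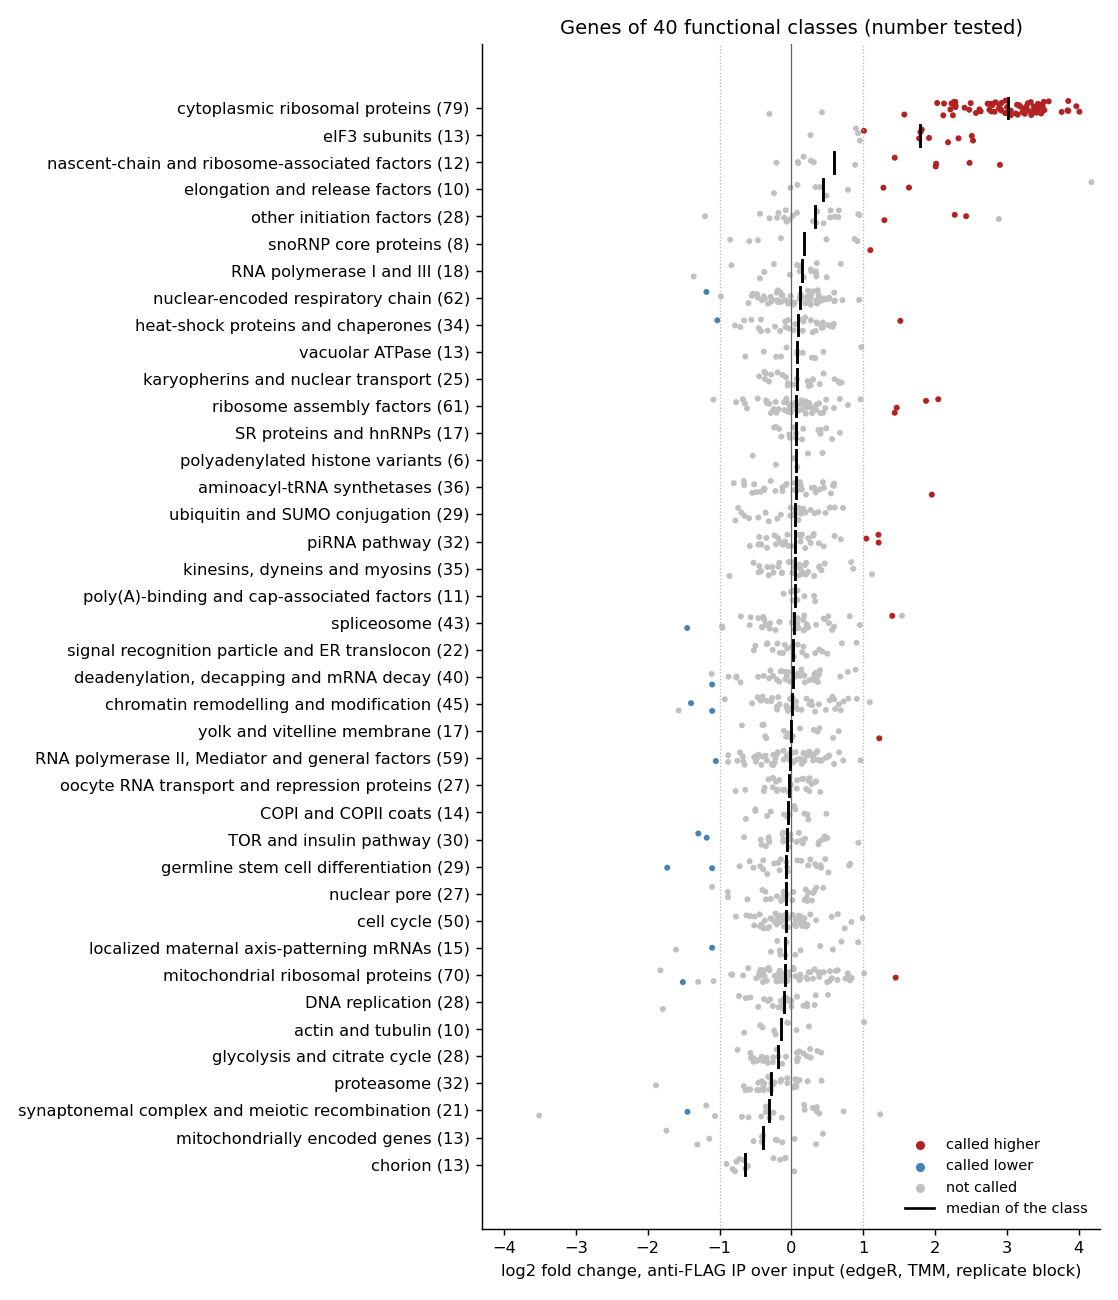
Log2 fold change of anti-FLAG IP over input (x axis) for every tested gene of 40 functional classes (rows, with the number tested), with called genes in red and blue and the class median as a black bar. Ribosomal proteins have a median of 3.01 and eIF3 subunits of 1.79, while most other medians lie near 0. Of all points, 2 lie outside the axis.

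Ribosomal protein transcripts formed the upper end of the distribution, with 76 of 79 tested called higher, or 41 without replicate 1. RpS5a (FBgn0002590, chromosome X, 17143588 to 17148264, minus strand) and RpS14b (FBgn0004404, chromosome X, 7934898 to 7935792, plus strand) lay nearest the median of 3.01. RpS5a had 3239.9, 4704 and 2252 CPM in anti-FLAG IP against 339, 344 and 598 in input, and RpS14b had 1786, 2103 and 1052 CPM in anti-FLAG IP against 169, 203 and 236 in input. RpS5a overlaps 14 annotated genes on its strand. RpS14b and RpS14a are near-identical copies, as are some other pairs in the set, and the counting could divide reads between such copies. RpL22 and RpS15Ab were tested and not called. RpL22, a protein of the large subunit, had 392, 202 and 316 CPM in anti-FLAG IP and 192, 184 and 302 in input, with a log2 fold change of 0.42 (adjusted p = 0.256 by edgeR). The remaining member that was not called, RpS19b, had 14, 39 and 27 counts in anti-FLAG IP and 0 in all 3 input and all 3 IgG control libraries. Its pairs were at 2.09, 3.75 and 2.55, values that depend on how 0 counts are treated, and it missed the threshold (adjusted p = 0.0718 by edgeR).

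After the ribosomal proteins, the subunits of eIF3 moved as a class. Of 13 tested, 9 were called higher and none lower, 12 were higher at an adjusted p below 0.05 alone (3.56% of all genes tested), and 13 had a log2 fold change above 0. The median was 1.79, and it was 1.85, 2.04 and 1.33 in the 3 pairs. The lead was taken by subunits of different parts of the complex. eIF3g1, which binds RNA and eIF4B (FBgn0029629, chromosome X, 2609247 to 2610336, minus strand), had 906, 991 and 488 CPM in anti-FLAG IP, 152, 125 and 134 in the IgG control and 123.3, 120.5 and 162 in input. The 3 anti-FLAG IP libraries were above the 6 others, and replicate 3 was the lowest of the 3. Its log2 fold change against input was 2.53 ± 0.26 (SE, adjusted p = 1.49e-05 by edgeR). eIF3k (FBgn0034654, chromosome 2R, 21685283 to 21686201, plus strand) had 794, 884 and 534 CPM in anti-FLAG IP and 111, 122 and 157 in input, a log2 fold change of 2.51 ± 0.22 (SE, adjusted p = 9.81e-07 by edgeR). eIF3l, its neighbour in the complex (chromosome 3L, 12143446 to 12146097, minus strand), had 1331, 1429 and 1015 CPM in anti-FLAG IP against 212, 247 and 305 in input, with 2.32 ± 0.24 (SE, adjusted p = 3.75e-06 by edgeR). The PCI-domain subunit eIF3m (chromosome 2R, 14163066 to 14164825, minus strand) had the most even anti-FLAG IP values of the 4, 990.0, 955 and 948 CPM in anti-FLAG IP and 199.5, 186 and 269.6 in input, with 2.18 ± 0.20 (SE, adjusted p = 9.81e-07 by edgeR).

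The other called subunits were eIF3f1 (log2 fold change 1.91 ± 0.21 SE, edgeR, adjusted p = 7.59e-06), eIF3h (1.81), eIF3e (log2 fold change 1.79 ± 0.19 SE, edgeR, adjusted p = 6.80e-06), eIF3b (1.78) and eIF3c (1.01). eIF3e had 904, 966 and 839 CPM in anti-FLAG IP and 241, 267 and 284 in input. eIF3c lay at the 2-fold minimum, with 807, 966 and 1010.4 CPM in anti-FLAG IP and 459, 406 and 537 in input. The largest subunit, eIF3a, passed the test of difference but not the minimum fold, with a log2 fold change of 0.90 (adjusted p = 0.00293 by edgeR). So did eIF3d1, which contacts the cap in mammals, at 0.93 (adjusted p = 0.00648 by edgeR), and eIF3i at 0.95 (adjusted p = 0.00121 by edgeR). eIF3j, a loosely attached subunit, had 142, 143 and 213 CPM in anti-FLAG IP and 117, 139 and 159 in input, a log2 fold change of 0.27 (adjusted p = 0.47 by edgeR). Against IgG control 11 of the 13 were called higher (1.71% of all genes tested there), with a median of 1.71. IgG control against input had a median of -0.06. Without replicate 1, 2 or 3 the count of called subunits was 9, 8 and 9. Calls were lost without replicate 1 by eIF3b (1.70, 0.102) and eIF3c (1.09, 0.057) and without replicate 2 by eIF3c (0.86, 0.126), with log2 fold change and adjusted p by edgeR in parentheses.

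Among the other initiation factors the rise was limited to a few genes, with 3 of 28 called higher and none lower around a median of 0.32. eIF4A, the RNA helicase that unwinds 5′ ends (FBgn0001942, chromosome 2L, 5981764 to 5985909, plus strand), had 8237, 11028 and 7463 CPM in anti-FLAG IP, 1299, 1786 and 1791 in the IgG control and 1403, 1598 and 2003 in input, with a log2 fold change of 2.43 ± 0.44 (SE, adjusted p = 0.0012 by edgeR). Without replicate 1 its log2 fold change was 2.35 with an adjusted p of 0.181 by edgeR. pix, the homologue of the ribosome recycling factor ABCE1 (FBgn0086706, chromosome 3L, 8972056 to 8974765, minus strand), had 1536, 1601 and 1151 CPM in anti-FLAG IP against 282, 256 and 362 in input (log2 fold change 2.27 ± 0.25 SE, edgeR, adjusted p = 8.11e-06). eIF1A, which aids scanning, had 666, 737 and 972 CPM in anti-FLAG IP against 270.5, 347 and 358 in input (log2 fold change 1.29 ± 0.19 SE, edgeR, adjusted p = 1.68e-04). eIF2gamma, of the complex that carries the initiator tRNA, was at 0.95 (adjusted p = 0.00311 by edgeR) and eIF2Bgamma at 0.93 (adjusted p = 0.0372 by edgeR), both under the minimum fold. Of the proteins that eIF4A works with, the scaffold eIF4G1 was at -0.06 (adjusted p = 0.91 by edgeR), the cap-binding protein eIF4E1 at 0.34 (adjusted p = 0.488 by edgeR) and eIF4B at 0.54 (adjusted p = 0.322 by edgeR).

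Elongation factors split in the same manner, 2 of 10 being called higher and none lower, with a median of 0.44. eEF1gamma and eEF1beta are subunits of the complex that reloads eEF1A with GTP. eEF1gamma (chromosome 3R, 29220172 to 29222109, plus strand) had 4441, 5975 and 5695 CPM in anti-FLAG IP, 1792, 1793 and 1800.1 in the IgG control and 1592, 1788 and 1833 in input (log2 fold change 1.64 ± 0.38 SE, edgeR, adjusted p = 0.0108). eEF1beta had 1433, 1988 and 2068 CPM in anti-FLAG IP and 735, 766 and 757 in input (log2 fold change 1.28 ± 0.27 SE, edgeR, adjusted p = 0.00514). Neither was called without replicate 1, at eEF1gamma (1.70, 0.339) and eEF1beta (1.42, 0.127), or without replicate 2, at eEF1gamma (1.56, 0.164) and eEF1beta (1.21, 0.1), with log2 fold change and adjusted p by edgeR in parentheses. The third subunit, eEF1delta, was at 0.49 (adjusted p = 0.131 by edgeR). The translocase eEF2 had 8200.1, 6769 and 9037 CPM in anti-FLAG IP and 4258, 4160.1 and 5712 in input, higher in each pair, with a log2 fold change of 0.79 that did not pass (adjusted p = 0.353 by edgeR). The release factors eRF1 and eRF3 were at 0.40 and -0.24 (adjusted p by edgeR = 0.235 and 0.53).

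Proteins that sit on the ribosome or on the nascent chain made up the next group, where 5 of 12 were called higher and none lower (median 0.60), or 2 higher without replicate 1. Rack1, a scaffold bound to the small subunit (FBgn0020618, chromosome 2L, 7825347 to 7827315, minus strand), had the highest log2 fold change among the called genes with a symbol outside the ribosomal protein set. It had 11476, 16716 and 7920.1 CPM in anti-FLAG IP, 1189, 1513 and 1745 in the IgG control and 1287, 1378 and 2166 in input (log2 fold change 2.90 ± 0.52 SE, edgeR, adjusted p = 8.99e-04). Tctp, a growth-related protein whose mammalian mRNA opens with a TOP tract (chromosome 3R, 11210247 to 11211898, plus strand), had 8118, 10241 and 6420.0 CPM in anti-FLAG IP against 1349, 1493 and 1589 in input (log2 fold change 2.48 ± 0.43 SE, edgeR, adjusted p = 7.58e-04). The nascent polypeptide-associated complex was represented by both of its subunits. Nacalpha, the alpha subunit, had 1724, 2267 and 2218 CPM in anti-FLAG IP and 418, 532 and 621 in input (log2 fold change 2.01 ± 0.27 SE, edgeR, adjusted p = 1.00e-04). bic, the beta subunit, had 3268, 4509 and 5249 CPM in anti-FLAG IP against 895, 1127 and 1209 in input (log2 fold change 2.01 ± 0.36 SE, edgeR, adjusted p = 8.71e-04). In these 4 genes each anti-FLAG IP library was above each of the 6 others. Without replicate 1, Rack1, Tctp and bic missed the threshold, at adjusted p by edgeR of 0.155, 0.133 and 0.115, with log2 fold changes of 2.75, 2.41 and 2.07. The cytosolic chaperone Hsc70-4 was at 0.27 (adjusted p = 0.797 by edgeR) and the acetyltransferase subunit Naa15-16 at 0.31 (adjusted p = 0.363 by edgeR).

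**Figure D2:**
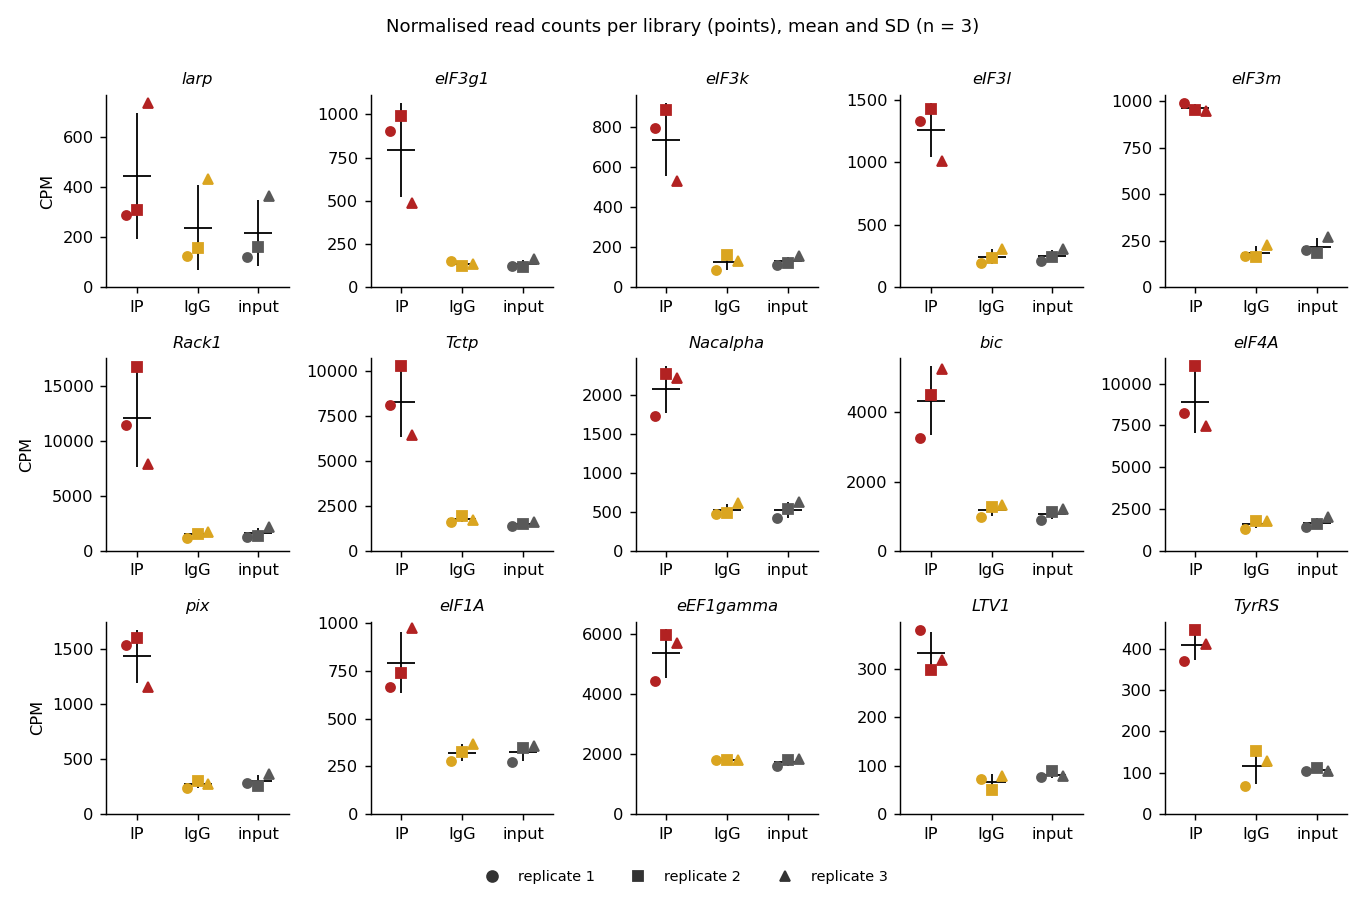
Normalised read counts (CPM, y axis from 0) of the bait and 14 translation-related genes in anti-FLAG IP, IgG control and input, with a symbol for each replicate and the mean and SD (n = 3) in black. For eIF3g1 the anti-FLAG IP libraries lie between 488 and 991 CPM, above all IgG control and input libraries, whereas for larp the groups overlap.

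The listed ribosome assembly factors as a class did not follow the ribosomal proteins. Of 61 tested, 4 were called higher and none lower, and the median was 0.07. LTV1, a factor of small subunit maturation (FBgn0027525, chromosome 2R, 10836570 to 10838727, minus strand), had 381, 298 and 319 CPM in anti-FLAG IP, 72.1, 50.1 and 78.7 in the IgG control and 76.4, 89.9 and 78.2 in input (log2 fold change 2.04 ± 0.19 SE, edgeR, adjusted p = 9.81e-07). CG4364, the fly pescadillo, had 1156, 1063 and 887 CPM in anti-FLAG IP and 294, 271 and 289 in input (log2 fold change 1.87 ± 0.20 SE, edgeR, adjusted p = 6.80e-06). RpL24-like, a placeholder for RpL24 on the nascent large subunit, had 311, 282 and 421 CPM in anti-FLAG IP against 116, 126 and 125 in input (log2 fold change 1.47 ± 0.18 SE, edgeR, adjusted p = 2.83e-05). The GTPase Non1, also counted with the ribosome-associated factors, had 1227, 914 and 991 CPM in anti-FLAG IP against 357, 317 and 513 in input (log2 fold change 1.44 ± 0.22 SE, edgeR, adjusted p = 2.30e-04). These 4 were also called higher against IgG control, at log2 fold changes of 2.34, 2.13, 1.63 and 1.96. Of the 8 snoRNP core proteins only nop5 was called, with 421, 475 and 695 CPM in anti-FLAG IP and 204, 238 and 302 in input (log2 fold change 1.10 ± 0.18 SE, edgeR, adjusted p = 3.31e-04). It overlaps 2 genes on its own strand. Fib, the methyltransferase of the same snoRNP class, and Gar1, of the class that guides pseudouridylation, passed the test but not the minimum fold, at 0.92 (adjusted p = 0.00234 by edgeR) and 0.88 (adjusted p = 0.00685 by edgeR). Nop60B and Nopp140 were at 0.49 and -0.47 (adjusted p by edgeR = 0.36 and 0.136).

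Genes outside the lists of these classes were higher as well. Of the 90 higher genes outside the ribosomal protein set, 32 were in a list, the named non-coding genes not counted. Most of the 90 were thus in none, among them the 10 without a symbol. The list of ribosome assembly factors matched 62 of its 75 symbols, so genes of a class may lie outside its list. TyrRS, which charges the tyrosine tRNA (FBgn0027080, chromosome 3L, 16417349 to 16419302, minus strand), had 372, 445 and 413 CPM in anti-FLAG IP, 67.8, 153 and 128 in the IgG control and 103, 112 and 105 in input (log2 fold change 1.95 ± 0.18 SE, edgeR, adjusted p = 9.81e-07). It was the only one of 36 aminoacyl-tRNA synthetases and their cofactors to be called, and the class median was 0.06. The most abundant others in input, IleRS and AlaRS, were at 0.40 (adjusted p = 0.275 by edgeR) and -0.07 (adjusted p = 0.885 by edgeR). CG1774 (chromosome 3R, 31592803 to 31594719, plus strand) had 114, 184 and 95.6 CPM in anti-FLAG IP against 19.1, 28.8 and 37.1 in input (log2 fold change 2.23 ± 0.25 SE, edgeR, adjusted p = 1.12e-05). Ip259, TTLL12, Mpcp2, Grx3 and Ddx56 were chosen after their values were seen. Ip259 had 549, 784 and 908 CPM in anti-FLAG IP and 136, 193 and 242 in input (log2 fold change 1.998 ± 0.18 SE, edgeR, adjusted p = 9.81e-07), with the pairs at 2.01, 2.02 and 1.90. TTLL12, of the tubulin-tyrosine ligase family, had 86.2, 114 and 127 CPM in anti-FLAG IP against 23.7, 26.95 and 32.95 in input (log2 fold change 1.98 ± 0.22 SE, edgeR, adjusted p = 8.11e-06). Mpcp2, a mitochondrial phosphate carrier, had 1871, 2212 and 1469 CPM in anti-FLAG IP against 472, 570.2 and 589 in input (log2 fold change 1.77 ± 0.27 SE, edgeR, adjusted p = 2.30e-04). The monothiol glutaredoxin Grx3 was at 1.59 ± 0.19 (SE, adjusted p = 1.49e-05 by edgeR) and the RNA helicase Ddx56 at 1.15 ± 0.18 (SE, adjusted p = 2.34e-04 by edgeR). TyrRS, CG1774, Ip259 and TTLL12 kept their call under all 11 alternatives run on single genes, as did eIF3f1, eIF3g1, eIF3k, eIF3l, eIF3m, pix, Nacalpha and LTV1.

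A further group among the higher genes was set apart by the length of its coding sequence. It was noticed in the values, and the length classes were chosen after that. Of 75 genes outside the ribosomal protein set with more than 9000 coding nucleotides, 15 were called higher (20%, against 1.20% of all genes outside that set) and none lower. Their median log2 fold change was 0.69. Of 165 genes with 6001 to 9000 nucleotides, 5 were called higher and none lower, with a median of 0.28. Of 2694 genes with 1001 to 2000 nucleotides, 26 were called higher and 31 lower, with a median of -0.07. The pairs did not share this. For the longest class the median log2 ratio was 1.05 in pair 1, 0.81 in pair 2 and -0.06 in pair 3, and for the class of 6001 to 9000 nucleotides it was 0.60, 0.39 and -0.24. Without replicate 3 the longest class had 32 called genes, without replicate 1 it had 10 and without replicate 2 it had 9. IgG control against input had a median of 0.21 in the longest class, with 0.20, 0.19 and 0.22 in the 3 pairs. Of the 6 genes called higher in IgG control against input, 3 were in the longest class. For 5 of the 15 called genes, Muc12Ea, bt, Msp300, Sdb and apolpp, IgG control against input was at 1.84 to 3.40. Not called were Sdb (1.19, 0.375) without replicate 1 and Sdb (1.83, 0.177) without replicate 2, with log2 fold change and adjusted p by edgeR in parentheses. Total-count scaling left 2 of the 75 called higher. Against IgG control none of the 75 was called by edgeR, 21 were higher and 4 lower at an unadjusted p below 0.05, and the median was 0.51. The share of all genes at that p is not given for this comparison, so the 21 and 4 have no background beside them.

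**Figure D3:**
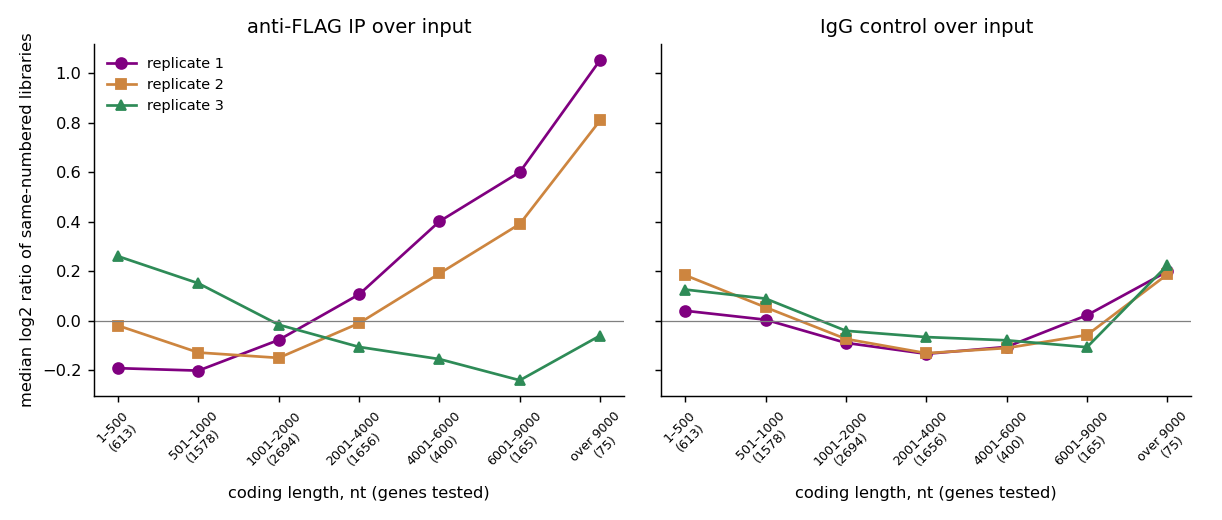
Median log2 ratio of same-numbered libraries (y axis) against coding length in nucleotides (x axis, with the number of genes tested), for anti-FLAG IP over input on the left and IgG control over input on the right, ribosomal protein genes left out. Replicates 1 and 2 of anti-FLAG IP reach 1.05 and 0.81 in the longest class, and replicate 3 stays at -0.06.

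The long genes named here were chosen after their values were seen. mgl and LRP1 encode giant endocytic receptors of the LDL receptor family. mgl (chromosome X, 9358496 to 9500129, minus strand) had 139.7, 164 and 76.6 CPM in anti-FLAG IP, 31.4, 41.6 and 82.1 in the IgG control and 39.5, 40.7 and 52.6 in input (log2 fold change 1.48 ± 0.26 SE, edgeR, adjusted p = 0.00124). LRP1 had 231, 180.0 and 71.6 CPM in anti-FLAG IP and 51.8, 56.6 and 49.8 in input (log2 fold change 1.48 ± 0.26 SE, edgeR, adjusted p = 0.00182). In both, replicate 3 of anti-FLAG IP was below the same-numbered IgG control. kug, a giant cadherin of the follicular epithelium, had 392, 388 and 133 CPM in anti-FLAG IP, 111, 151 and 136 in the IgG control and 111, 105 and 102 in input (log2 fold change 1.39 ± 0.26 SE, edgeR, adjusted p = 0.00385). LanA, a laminin chain, had 197, 241 and 177 CPM in anti-FLAG IP against 36.8, 75.7 and 128 in input (log2 fold change 1.54 ± 0.31 SE, edgeR, adjusted p = 0.0148). vkg, a type IV collagen chain with a shorter coding sequence, had 210.0, 283 and 187 CPM in anti-FLAG IP against 44.1, 65.3 and 118 in input (log2 fold change 1.70 ± 0.27 SE, edgeR, adjusted p = 0.00127), and it was also above IgG control at 1.21 (adjusted p = 0.00623 by edgeR). The ubiquitin ligase HUWE1 was at 1.18 ± 0.26 (SE, adjusted p = 0.0168 by edgeR), Bruce, a ubiquitin-conjugating enzyme, at 1.31 ± 0.25 (SE, adjusted p = 0.00524 by edgeR) and puf, a ubiquitin protease, at 1.16 ± 0.23 (SE, adjusted p = 0.00437 by edgeR). These 3 are not in the list of ubiquitin and SUMO conjugation, where none of 29 genes was called by edgeR or DESeq2, 8 had an unadjusted p below 0.05 and the median was 0.05. Over all 7575 genes tested, 1384 had such an unadjusted p. The pairs were at 1.97, 1.26 and 0.25 for HUWE1, 1.95, 1.52 and 0.37 for Bruce and 1.58, 1.52 and 0.29 for puf. Calls were lost without replicate 1 by HUWE1 (0.77, 0.115), Bruce (0.96, 0.0246) and puf (0.92, 0.0326), without replicate 2 by LanA (1.44, 0.16), HUWE1 (1.11, 0.177), Bruce (1.16, 0.0627) and puf (0.94, 0.0578), and without the block by LanA (1.37, 0.105) and puf (1.31, 0.113), with log2 fold change and adjusted p by edgeR in parentheses.

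For 10 of the 90 higher genes outside the ribosomal protein set, IgG control was also at least 2-fold above input. Msp300, a giant nuclear-envelope and muscle protein, had 57.4, 63.5 and 38.1 CPM in anti-FLAG IP, 96.3, 52.5 and 55.5 in the IgG control and 11.8, 13.6 and 12.9 in input (log2 fold change 2.04 ± 0.29 SE, edgeR, adjusted p = 1.49e-04), and IgG control against input was at 2.36. The titin-like bt had 7.94, 20.2 and 76.5 CPM in anti-FLAG IP, 81.99, 10.8 and 144 in the IgG control and 4.48, 6.68 and 4.79 in input (log2 fold change 2.15 ± 0.52 SE, edgeR, adjusted p = 0.0217). Muc12Ea, a mucin-like gene, had 692, 687 and 217.8 CPM in anti-FLAG IP, 620.5, 375 and 239.6 in the IgG control and 118, 87.97 and 108 in input (log2 fold change 2.21 ± 0.37 SE, edgeR, adjusted p = 0.012). The fat body lipoprotein apolpp, chosen after its values were seen, had 139.7, 103 and 21.2 CPM in anti-FLAG IP, 596, 116 and 40.8 in the IgG control and 22.9, 24.98 and 13.5 in input (log2 fold change 1.81 ± 0.32 SE, edgeR, adjusted p = 0.00143). Without the block bt (2.73, 0.0923) and apolpp (2.12, 0.193) were not called, nor was bt (2.47, 0.128) without replicate 2 and bt (1.24, 0.255) without replicate 3, with log2 fold change and adjusted p by edgeR in parentheses. None of these 4 was called against IgG control, the log2 fold changes being -0.34, -1.08, 0.30 and -1.07. Markers of the muscle sheath that surrounds the ovary are given beside them. The 4 in the files summed to 79.2 to 272 CPM in anti-FLAG IP, 169 to 464 in the IgG control and 84.3 to 187 in input, and none was at 0. Mhc, muscle myosin, had 26.3, 48.9 and 75.3 CPM in anti-FLAG IP, 204, 46.1 and 117 in the IgG control and 15.1, 24.5 and 45.1 in input, while Mlc2, a myosin light chain, had 22.1, 47.3 and 76.5 CPM in anti-FLAG IP, 86.6, 42.7 and 84.2 in the IgG control and 38.8, 51.99 and 70.9 in input. The 3 fat body markers summed to 0.271 to 33.1 CPM in anti-FLAG IP, 4.93 to 57.04 in the IgG control and 2.94 to 15.6 in input. Of these, Fbp1 was at 0 in all 9 libraries and Lsp1beta in 1 anti-FLAG IP and 2 IgG control libraries. The part of muscle and fat body RNA in these 4 results was not tested. Between replicates, fewer cells of a type and less RNA per cell cannot be told apart in whole-ovary samples.

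Germline and oogenesis classes showed single higher genes on flat medians. Of 32 genes of the piRNA pathway, which silences transposons, 3 were called higher and none lower (median 0.05). The co-chaperone shu had 125, 153 and 173 CPM in anti-FLAG IP and 58.3, 65.6 and 72.3 in input (log2 fold change 1.21 ± 0.19 SE, edgeR, adjusted p = 2.32e-04). The Tudor protein SoYb had 215, 160.1 and 60.8 CPM in anti-FLAG IP against 56.1, 59.8 and 53.4 in input (log2 fold change 1.21 ± 0.28 SE, edgeR, adjusted p = 0.0176), with replicate 3 of anti-FLAG IP close to its input. The cluster-binding HP1 protein rhi had 39.01, 31.4 and 82.8 CPM in anti-FLAG IP against 20.7, 25.3 and 23.2 in input (log2 fold change 1.04 ± 0.30 SE, edgeR, adjusted p = 0.0435), with replicate 3 the highest. Neither SoYb nor rhi was called without the block, at SoYb (1.38, 0.0855) and rhi (1.16, 0.101), or without replicate 1, at SoYb (0.82, 0.156) and rhi (1.09, 0.115), with log2 fold change and adjusted p by edgeR in parentheses. Nor was SoYb (1.07, 0.155) called without replicate 2 and rhi (0.64, 0.309) without replicate 3. Localized maternal mRNAs that pattern the egg had a median of -0.08, with 1 of 15 called lower, nanos at -1.10, and none higher. In that list bcd, the anterior determinant, was at 0.93 (adjusted p = 0.00404 by edgeR) and hb at 0.70 (adjusted p = 0.0215 by edgeR), both under the minimum fold and chosen after their values were seen. bcd was one of the 6 genes called higher in IgG control against input, at 1.02. osk, the posterior determinant, had 1078, 789 and 1174 CPM in anti-FLAG IP and 1137, 1189 and 1388 in input, at -0.29 (adjusted p = 0.611 by edgeR). Of 17 yolk and vitelline membrane genes, Yp1 was called higher, with 2120.0, 3510.1 and 2730.1 CPM in anti-FLAG IP, 1546, 1921 and 1929 in the IgG control and 743, 1309 and 1709.8 in input (log2 fold change 1.22 ± 0.33 SE, edgeR, adjusted p = 0.03). The call was lost without the block (Yp1 (1.17, 0.0923)), without replicate 1 (Yp1 (1.06, 0.581)) and without replicate 2 (Yp1 (1.09, 0.278)). Yp2 and Vm34Ca were at 0.58 (adjusted p = 0.455 by edgeR) and -0.003 (adjusted p = 0.996 by edgeR).

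Other higher genes came singly from classes with flat medians. stv, a BAG-family co-chaperone, had 16.002, 15.4 and 225 CPM in anti-FLAG IP and 8.28, 8.10 and 39.8 in input (log2 fold change 1.52 ± 0.30 SE, edgeR, adjusted p = 0.00285). Its level in replicate 3 was above that of the other replicates in every group, and it was not called without the block, at stv (2.20, 0.633), or without replicate 3, at stv (0.97, 0.338), with log2 fold change and adjusted p by edgeR in parentheses. mRpS28, of the mitochondrial ribosome, had 48.4, 46.2 and 46.6 CPM in anti-FLAG IP and 18.1, 16.2 and 17.98 in input (log2 fold change 1.45 ± 0.28 SE, edgeR, adjusted p = 0.00192), and IgG control replicate 1 was at 44.2. Lsm12a, grouped with the spliceosome by its name although its homologues act with Ataxin-2, had 309, 288 and 502 CPM in anti-FLAG IP against 122, 140.0 and 147 in input (log2 fold change 1.402 ± 0.19 SE, edgeR, adjusted p = 6.52e-05). Uhg5, a host gene of snoRNAs, had 64.5, 65.9 and 124 CPM in anti-FLAG IP, 34.9, 47.8 and 121 in the IgG control and 31.4, 52.1 and 37.1 in input (log2 fold change 1.06 ± 0.26 SE, edgeR, adjusted p = 0.0152). It overlaps 11 genes on its strand, so its reads may be those of another gene. Its call was lost without the block, at Uhg5 (1.09, 0.0766), without replicate 1, at Uhg5 (1.06, 0.0502), and without replicate 3, at Uhg5 (0.71, 0.0766). None of 22 genes of the signal recognition particle and translocon was called, although Sec61alpha, the translocon channel, had 487, 789.5 and 1142 CPM in anti-FLAG IP and 383, 475 and 580.2 in input, at 0.70 (adjusted p = 0.039 by edgeR), and Stt3A was at -0.12 (adjusted p = 0.786 by edgeR).

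The lower genes did not gather in any class. Of the 75, 12 belonged to a list of the plot of classes and 1 more, lncRNA:CR42491, to the named non-coding genes, and no list had more than 2 of them called lower. Regulators of growth were the first pair. raptor, the substrate-binding subunit of TOR complex 1 (FBgn0029840, chromosome X, 6082634 to 6090201, minus strand), had 21.7, 19.7 and 21.9 CPM in anti-FLAG IP, 20.2, 16.8 and 24.5 in the IgG control and 58.4, 41.98 and 58.5 in input (log2 fold change -1.30 ± 0.27 SE, edgeR, adjusted p = 0.00391). The anti-FLAG IP libraries were below all input libraries and level with IgG control, the log2 fold change against which was 0.06. raptor overlaps a gene on each strand. Mitf, a transcription factor of lysosomal genes under TOR control (chromosome 4, 1198852 to 1224467, plus strand), had 137, 73.2 and 207 CPM in anti-FLAG IP, 197, 147 and 227 in the IgG control and 271, 304 and 310.0 in input (log2 fold change -1.18 ± 0.23 SE, edgeR, adjusted p = 0.00368). Of 30 genes of the TOR and insulin pathway these 2 were called lower (0.990% of all genes tested) and none higher, the median being -0.06. The list had 33 symbols, and Tor, S6k and InR were not matched, so their transcripts are not part of these values. Without the block Mitf was not called (adjusted p by edgeR = 0.0903), nor without replicate 2 (Mitf (-0.79, 0.0603)), and without replicate 1 raptor was not (raptor (-1.24, 0.0506)), with log2 fold change and adjusted p by edgeR in parentheses. Thor, the 4E-BP that TOR inhibits, was at -0.11 (adjusted p = 0.867 by edgeR), and rictor, of TOR complex 2, was at 0.93 (adjusted p = 0.0512 by edgeR).

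Among germline genes, nanos and bam were lower. nanos, a translational repressor of germline stem cells (chromosome 3R, 19157238 to 19160202, plus strand), had 165, 147 and 226 CPM in anti-FLAG IP, 249, 324 and 291 in the IgG control and 408, 425 and 324 in input (log2 fold change -1.10 ± 0.20 SE, edgeR, adjusted p = 9.82e-04). bam, the differentiation factor that follows it (chromosome 3R, 25243039 to 25245109, minus strand), had 14.6, 4.93 and 19.5 CPM in anti-FLAG IP, 35.4, 11.1 and 22.1 in the IgG control and 36.9, 37.6 and 43.4 in input (log2 fold change -1.73 ± 0.36 SE, edgeR, adjusted p = 0.00403). Anti-FLAG IP did not overlap input in either. The class of germline stem cell differentiation, with 29 tested, had these 2 calls (0.990% of all genes tested were lower) and a median of -0.07. Without the block bam was not called (adjusted p by edgeR = 0.0635), and without replicate 2 bam (-1.24, 0.0572) and nanos (-0.91, 0.0296) were not, with log2 fold change and adjusted p by edgeR in parentheses. The helicase Blm, of meiotic recombination, had 48.2, 15.6 and 46.1 CPM in anti-FLAG IP, 65.00, 42.8 and 49.5 in the IgG control and 92.3, 76.97 and 108 in input (log2 fold change -1.45 ± 0.26 SE, edgeR, adjusted p = 9.49e-04), a call that was lost without the block (Blm (-1.32, 0.0789)), and it was the only call among 21 genes of its class (median -0.31). mtrm and mei-P26 were at -0.35 and 0.35 (adjusted p by edgeR = 0.364 and 0.3). The eggshell genes had the lowest class median of the plot of classes, -0.64 over 13 genes. None was called, and 4 were lower at an adjusted p under 0.05 alone, against 2.11% of all genes. Against IgG control the class median was -0.52 and 1 of the 13, Mur11Da, was among the 5 genes called lower there, at -1.28 (adjusted p = 0.00704 by edgeR), and it was at -0.72 (adjusted p = 0.0816 by edgeR) against input. Of the 4, yellow-g, an eggshell enzyme, was at -0.82 (adjusted p = 0.00524 by edgeR) and the chorion protein Cp16 at -0.78 (adjusted p = 0.0169 by edgeR). The most abundant members in input, Cp38 and Cp36, were at -0.16 and -0.25 (adjusted p by edgeR = 0.882 and 0.784).

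**Figure D4:**
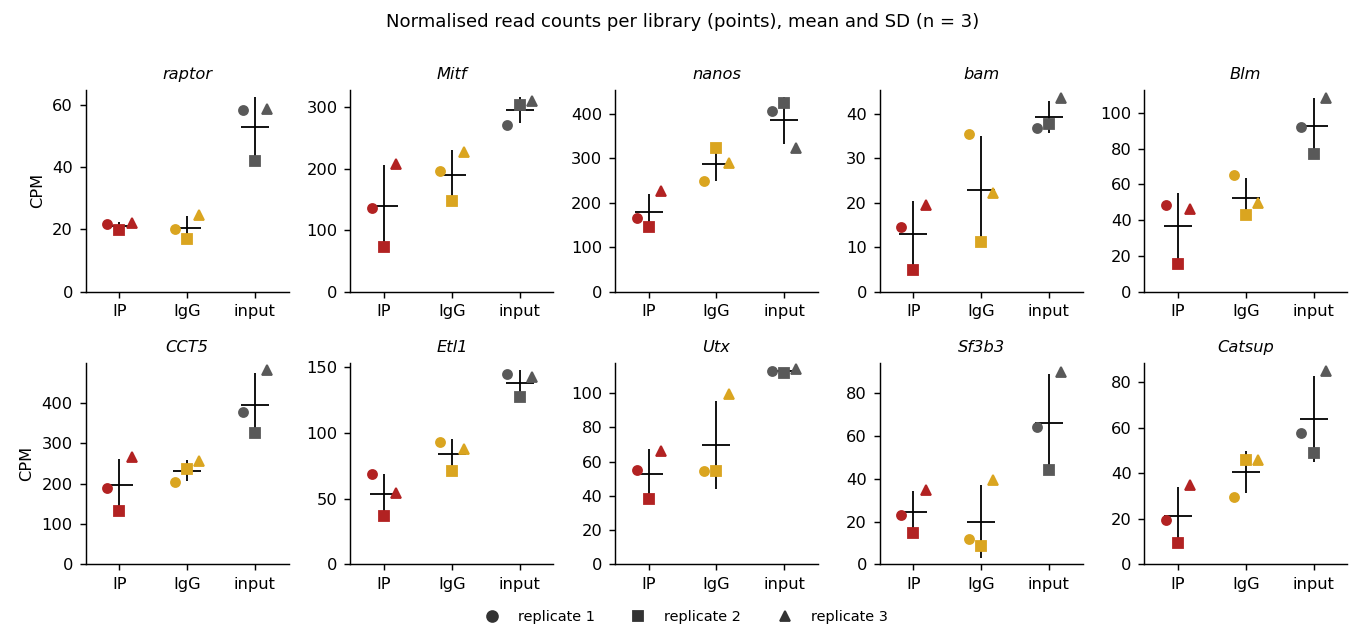
Normalised read counts (CPM, y axis from 0) of 10 called lower genes in anti-FLAG IP, IgG control and input, with a symbol for each replicate and the mean and SD (n = 3) in black. The anti-FLAG IP libraries of raptor lie between 19.7 and 21.9 CPM, at the level of IgG control and below input.

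Chromatin and nuclear genes gave further single lower calls. Of 45 chromatin genes, the helicase Etl1 and the histone demethylase Utx were lower, against 0.990% of all genes tested. Etl1 had 68.3, 36.9 and 54.4 CPM in anti-FLAG IP, 92.6, 71.3 and 87.4 in the IgG control and 145, 127 and 143 in input (log2 fold change -1.397 ± 0.21 SE, edgeR, adjusted p = 1.68e-04). Utx had 55.01, 38.04 and 66.1 CPM in anti-FLAG IP, 54.8, 54.7 and 99.4 in the IgG control and 113, 112 and 114 in input (log2 fold change -1.10 ± 0.21 SE, edgeR, adjusted p = 0.00203). Taf5, of the general factor TFIID, had 29.8, 16.6 and 37.9 CPM in anti-FLAG IP against 59.8, 46.7 and 63.04 in input (log2 fold change -1.05 ± 0.26 SE, edgeR, adjusted p = 0.0173). The U2 snRNP protein Sf3b3 had 23.2, 14.6 and 34.8 CPM in anti-FLAG IP, 11.6, 8.48 and 39.6 in the IgG control and 63.97, 43.9 and 89.8 in input (log2 fold change -1.45 ± 0.25 SE, edgeR, adjusted p = 6.59e-04), and the log2 fold change against IgG control was 0.54. It overlaps 10 genes on its strand. CCT5, of the cytosolic chaperonin, had 189, 133 and 265 CPM in anti-FLAG IP, 203, 237 and 256 in the IgG control and 377, 325 and 482 in input (log2 fold change -1.03 ± 0.18 SE, edgeR, adjusted p = 6.51e-04). For CCT5, IgG control against input was at -0.75 (adjusted p = 0.0265 by edgeR) and anti-FLAG IP against IgG control at -0.29 (adjusted p = 0.748 by edgeR). mRpL10, of the mitochondrial ribosome, had 6.19, 13.8 and 17.3 CPM in anti-FLAG IP against 33.1, 30.04 and 37.5 in input (log2 fold change -1.51 ± 0.35 SE, edgeR, adjusted p = 0.0118), and SdhD, of respiratory complex II, had 14.95, 15.6 and 26.2 CPM in anti-FLAG IP against 48.1, 43.3 and 35.9 in input (log2 fold change -1.18 ± 0.31 SE, edgeR, adjusted p = 0.0243). Against IgG control, Etl1, Utx, Taf5, mRpL10 and SdhD were at -0.68, -0.37, -0.63, -1.26 and -0.70, and none was called there. Calls were lost without the block by mRpL10 (-1.41, 0.0725), SdhD (-1.15, 0.0725), Taf5 (-0.99, 0.12) and CCT5 (-0.997, 0.0463), without replicate 1 by mRpL10 (-1.10, 0.194), SdhD (-0.94, 0.277) and Taf5 (-1.09, 0.0997), and without replicate 2 by SdhD (-1.06, 0.158), Taf5 (-0.87, 0.15), Utx (-0.91, 0.0476) and CCT5 (-0.93, 0.0202), with log2 fold change and adjusted p by edgeR in parentheses.

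The lowest fold changes, those of CG13742 and Dark, belonged to genes with few counts. Not all of the lowest genes had few counts. Catsup and CG31650 lay above 42.4 CPM, the median input level of all genes tested, in every input library. CG13742 was at 0 in 2 anti-FLAG IP libraries and at 3.70 CPM in the third, with 0, 7.68 and 4.35 in the IgG control and 14.6, 6.61 and 11.7 in input, and its fitted log2 fold change of -4.66 (adjusted p = 0.037 by edgeR) depends on how 0 counts are treated. Dark, the fly Apaf-1, had 1.75, 0 and 1.80 CPM in anti-FLAG IP, 0, 5.46 and 1.81 in the IgG control and 10.7, 7.29 and 16.5 in input (log2 fold change -3.59 ± 0.89 SE, edgeR, adjusted p = 0.0175). The non-coding lncRNA:CR42491 and hpRNA:CR32205 were at -2.99 and -2.21 (adjusted p by edgeR = 0.0489 and 0.017). lncRNA:CR42491 overlaps 2 genes on its strand and lies within the span of RpL22, so its reads may be those of another gene. The Golgi mannosidase alpha-Man-IIb had 7.94, 6.69 and 11.9 CPM in anti-FLAG IP, 9.65, 14.2 and 18.8 in the IgG control and 36.1, 25.7 and 40.4 in input (log2 fold change -1.94 ± 0.34 SE, edgeR, adjusted p = 7.79e-04). Catsup, a zinc transporter, had 19.5, 9.55 and 35.02 CPM in anti-FLAG IP and 57.9, 48.9 and 84.9 in input (log2 fold change -1.69 ± 0.28 SE, edgeR, adjusted p = 3.80e-04). The other genes that were lowest by the naming rule were CG5151 (-2.102), CG14647 (-2.002), CG44242 (-1.69), CG8043 (-1.67), Saysd1 (-1.65), CG31650 (-1.61), Chrac-16 (-1.60) and JMJD7 (-1.56), none above 62.1 CPM in any input library. Of these genes, alpha-Man-IIb and CG31650 were called under every alternative. Calls were lost without the block by CG13742 (-3.07, 0.298), Dark (-3.21, 0.104), lncRNA:CR42491 (-2.68, 0.16), hpRNA:CR32205 (-2.67, 0.0635), CG5151 (-1.93, 0.0881), CG14647 (-1.82, 0.0773), Catsup (-1.56, 0.0702), CG44242 (-1.54, 0.112), CG8043 (-1.60, 0.12), Saysd1 (-1.36, 0.281), Chrac-16 (-1.55, 0.0995) and JMJD7 (-1.48, 0.0907), with log2 fold change and adjusted p by edgeR in parentheses. They were lost without replicate 1 by CG13742 (-3.35, 0.245), hpRNA:CR32205 (-1.62, 0.442), CG44242 (-1.28, 0.184), CG8043 (-1.94, 0.189), Saysd1 (-1.39, 0.358) and Chrac-16 (-1.25, 0.414), without replicate 2 by CG13742 (-3.61, 0.163), lncRNA:CR42491 (-1.99, 0.096), hpRNA:CR32205 (-2.005, 0.102), CG5151 (-1.61, 0.138), CG8043 (-1.47, 0.208), Saysd1 (-1.31, 0.212), Chrac-16 (-1.71, 0.0901) and JMJD7 (-1.21, 0.1) and without replicate 3 by CG8043 (-1.64, 0.0524). Higher in level was tsr, the fly cofilin, chosen after its values were seen, with 237, 247 and 376 CPM in anti-FLAG IP, 477, 577 and 511 in the IgG control and 573, 675 and 669 in input (log2 fold change -1.17 ± 0.19 SE, edgeR, adjusted p = 3.44e-04).

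Most classes had medians near 0. The mitochondrial ribosome had a median of -0.09 over 70 genes with 1 higher and 1 lower call, and the nuclear-encoded respiratory chain had 0.12 over 62 genes with 1 lower call. The proteasome, at -0.28 over 32 genes, had no calls, although only 8 members had a log2 fold change above 0 and 2 were lower at an adjusted p under 0.05 alone. Its abundant members Rpn5 and Rpn1 were at -0.39 and -0.15. No gene was called among 11 poly(A)- and cap-associated factors (median 0.04), where pAbp, the poly(A)-binding protein and a partner of Larp, had 2292, 1755 and 3335 CPM in anti-FLAG IP and 2003, 2372 and 2671 in input (0.04, adjusted p = 0.964 by edgeR), and Gyf was at 0.18. Nor was any called among 27 nuclear pore genes (-0.08), 28 replication genes (-0.10), 50 cell cycle genes (-0.08), 28 genes of glycolysis and the citrate cycle (-0.19), 27 oocyte RNA transport and repression genes (-0.03), 35 motor genes (0.05) and 17 SR and hnRNP genes (0.07), the values in parentheses being medians. In these classes, the proteasome and the translocon, with 274 genes in all, 53 genes had an unadjusted p below 0.05, and DESeq2 called 1 higher and 0 lower where edgeR called none. Over all 7575 genes tested, 1384 had an unadjusted p below 0.05. Of the abundant members of these classes, some were nearer 0, such as CycB (-0.16), RPA1 (0.22), Nup98-96 (0.22), tral (0.25), me31B (-0.38), sqd (-0.22) and Hrb27C (0.15). Others were farther from it, such as CycA (-0.77), Gapdh2 (-0.53) and Sec61alpha (0.70). The mRNA of me31B, an RNA helicase of repressed mRNPs, had 2259, 2082 and 2884 CPM in anti-FLAG IP and 2955, 3174 and 3332 in input. The 13 mitochondrially encoded genes tested had a median of -0.39, set by pairs at -0.86, -0.57 and 0.28. mt:lrRNA, the large mitochondrial ribosomal RNA, had 4757, 7199 and 11580.2 CPM in anti-FLAG IP, 17058, 27549 and 22726 in the IgG control and 18471, 27399.9 and 30301 in input, at -1.74 (adjusted p = 0.0841 by edgeR), which DESeq2, total-count scaling, the fit of all 9 libraries and the fit without replicate 3 called lower.

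The remaining abundant members by class were not called either. Of the machinery of RNA synthesis, Polr1A, the largest subunit of RNA polymerase I, was at 0.08, its factor Tif-IA at -0.84 (adjusted p = 0.0225 by edgeR), the RNA polymerase II subunit Polr2B at 0.41 and the Mediator subunit MED26 at -0.49. Of metabolism, ATPsynbeta and ATPsynC, subunits of the mitochondrial ATP synthase, were at -0.60 and -0.33, the glycolytic enzymes Gapdh2 and Eno at -0.53 and -0.40, and the vacuolar ATPase subunits Vha16-1 and Vha55 at 0.08 and 0.08. Of the cytoskeleton and cell cycle, Act5C was at -0.06, alphaTub84B at -0.40, the kinesin Klp10A at 0.01, the dynein light chain ctp at -0.13, CycA at -0.77 and the replication clamp PCNA at -0.38. Of transport and turnover, the nuclear transport GTPase Ran was at -0.45, Fs(2)Ket, the fly importin beta, at 0.29, Nup358 at 0.44, the coat GTPase Sar1 at -0.29, Sec16 at -0.34, the ubiquitin-activating enzyme Uba1 at 0.05, Cul1 at 0.05 and the chaperone Hsp83 at 0.58. The histone variants His2Av and His3.3B were at 0.43 and 0.23, and mt:CoI, of the mitochondrial genome, was at -0.22. The core histone His2B:CG17949, one of many near-identical copies, was at -0.30 ± 2.01 (SE). All are log2 fold changes over input, with an adjusted p, Tif-IA left out, between 0.0745 and 0.981 by edgeR.

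The anti-FLAG IP libraries were also set against IgG control, and IgG control against input, and these comparisons share libraries with the main one. IgG control against input gave 6 higher genes (0.0790% of 7594) and 2 lower (0.0263%) by edgeR, where 675 genes had an unadjusted p under 0.05 and DESeq2 called 72 higher and 85 lower. Anti-FLAG IP against IgG control gave 127 higher genes (1.71% of 7408) and 5 lower (0.0675%). For the 90 higher genes outside the ribosomal protein set, the median log2 fold change was 1.46 against input and 1.13 against IgG control, and IgG control against input was at 0.13. The 90 include the 10 without a symbol, which may belong to the set. Called higher against IgG control as well were 42 of the 90, and 83 had a positive value. For the 75 lower genes the median was -1.26 against input, -0.67 against IgG control, and -0.64 for IgG control against input. None of the 75 was called lower against IgG control by edgeR, 22 were lower there at an unadjusted p below 0.05, and 67 had a negative value. The share of all genes at that p is not given for anti-FLAG IP against IgG control, so the 22 have no background beside them.

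**Figure D5:**
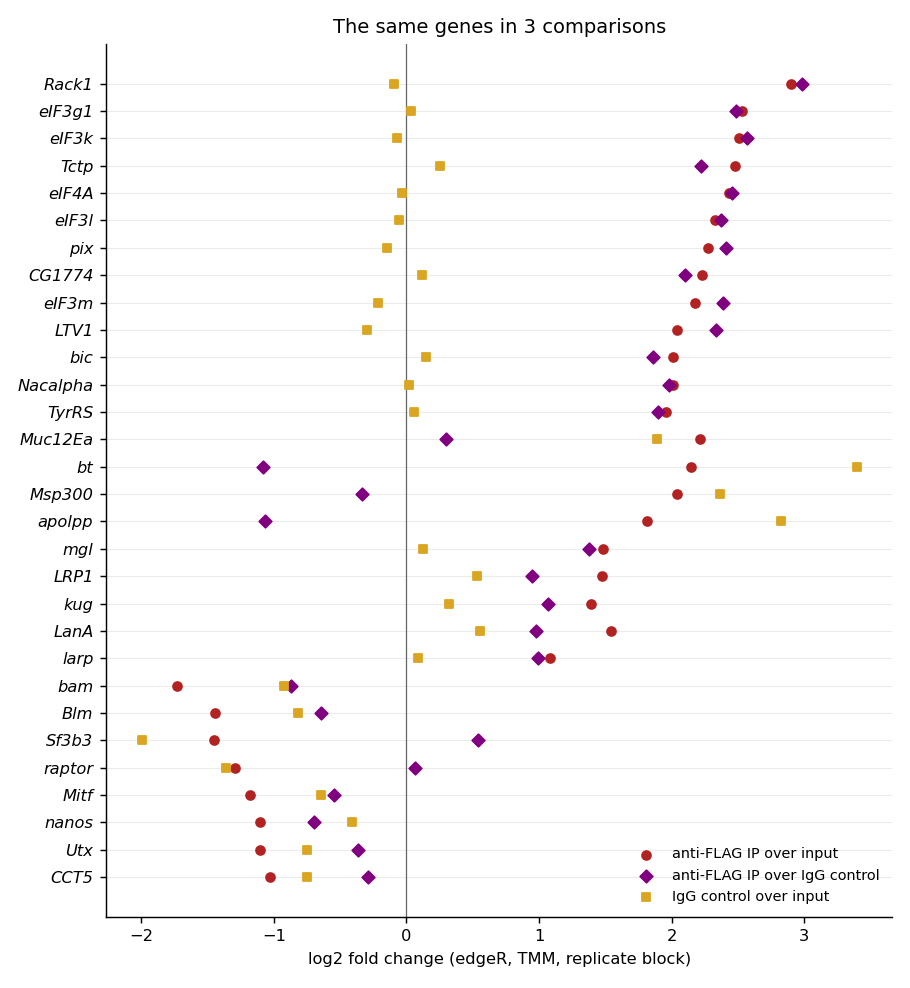
Log2 fold changes (x axis) of 30 named genes (rows) for anti-FLAG IP over input, anti-FLAG IP over IgG control and IgG control over input. For Rack1 to TyrRS both anti-FLAG IP values lie together and IgG control over input lies near 0, while for bt, Msp300 and apolpp IgG control over input is the highest of the 3, and for raptor and Sf3b3 it is as low as anti-FLAG IP over input or lower.

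The groups also differed in the make-up of their annotated genes, which is given as a description. Lengths, also those of the length classes, are of the transcript that the annotation marks as canonical. The called ribosomal protein genes had a median coding length of 466.5 nucleotides and a median 5′ UTR of 85. The 19 called genes of the initiation, elongation and ribosome-associated lists had 1014 and 108. The other called higher genes with an annotation, 60 in number, had 2179.5 and 222. The lower genes, 72 with an annotation, had 1494 and 129, and all 7260 tested genes with an annotation had 1429.5 and 159. Median input levels were 105 CPM for the higher genes outside the ribosomal protein set, 50.5 for the lower genes and 42.4 for all genes tested. Of the 90 higher genes, 10 features had no symbol in the tables used and are not named. Of the 10, 7 were called higher against IgG control too, and are among the 42. These 7 were at 1.06 to 3.72 over input, and had 383 to 19069.5 CPM in anti-FLAG IP. Another, the first feature of every list, has an identifier of fewer digits than the rest and held 40044, 36806 and 22186 counts in anti-FLAG IP, 1113012, 420887 and 62072 in the IgG control and 4777, 899 and 811 in input.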

How the data were processed

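RNA from ovaries was sequenced after anti-FLAG IP (n = 3), after IgG pulldown (n = 3) and from input (n = 3). Per the labels, RNA was treated with DNase, poly(A) mRNA was selected and fragmented for 13 min, and libraries were made with a directional kit. Per the submitters' processing notes, reads were mapped to dm6 with HISAT2 2.1.0 and assigned with featureCounts 1.4.6. The authors deposited whole-number read counts per FlyBase gene, without normalisation. The annotation release and the strand setting of the counting are not given in the sources used here, so reads of overlapping genes may not be separable. Symbols and coordinates came from BDGP6.54, and 16646 of 17024 features had a symbol.

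Counts were tested with edgeR 4.0.16 (R 4.3.3) by the quasi-likelihood test with TMM scaling, the default filter on low counts, Benjamini-Hochberg adjustment and the replicate number as a block. The block was used because same-numbered libraries were defined as pairs and the input was a reserved share of the lysate. Same-numbered anti-FLAG IP and input libraries deviated from their group means together, with correlations of 0.31, 0.20 and 0.46 over 6712 genes. Differently numbered ones had correlations of -0.37 to 0.14, the highest being replicate 2 of anti-FLAG IP with replicate 1 of input. Pair 2, at 0.20, was thus little above a mismatched pair. Pair ratios used a prior of 0.5 CPM. IgG control entered 2 further fits of the same form. The edgeR fits with and without the block and the DESeq2 fit were run on simulated counts, with 200 randomly drawn genes changed both ways. There the ribosomal protein genes did not rise together as they did here, so the simulation is no support for the calls. Alternatives were no block, other scalings, DESeq2 1.42.0, other filters, all 9 libraries and 1 pair left out.

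The genes and class lists were chosen with earlier results of these data known. Genes were named by rule: larp, the 15 highest and the 15 lowest called genes outside the ribosomal protein set that moved alike in 3 pairs, up to 5 called members of a list by adjusted p, the 2 most abundant in input where fewer than 2 were called, and the 2 ribosomal protein genes nearest the median. Other members named beside them, such as eIF3a to eIF3j, eIF4G1, eEF2, Hsc70-4, Fib, Gar1, Thor, rictor, yellow-g, Cp16, Mur11Da and Sdb, were chosen after their values were seen. Columns of other series numbered 0.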

Additional observations from a re-analysis of the deposited data

How the results depend on the processing

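Counts of called genes moved most with the scaling, the block and the libraries. Scaling by total counts gave 102 higher and 2575 lower genes, of which 26 and 2574 lay outside the ribosomal protein set. Without the block there were 19 lower genes, 19 of them outside the set. The fit of all 9 libraries gave 36 lower genes, 36 of them outside the set. With no minimum fold change there were 270 higher and 160 lower genes, of which 194 and 160 were outside the set. Leaving out 1 pair gave 109 to 248 higher genes, or 68 to 172 outside the set, and 33 to 177 lower genes, or 33 to 177 outside the set. The fewest higher genes came without replicate 1, the fewest lower without replicate 2 and the most of both without replicate 3, whose fit shared 81 of the 90 higher genes outside the set and 68 of the 75 lower genes with the fit of 3 pairs. DESeq2, DESeq2's size factors in edgeR, TMM without the ribosomal protein genes and both filters kept each count within 1.5 times. For IgG control against input, alternatives chosen after seeing the data gave 0 higher and 0 lower genes without the block, 72 and 85 by DESeq2, and 7 to 27 higher and 1 to 22 lower with 1 pair left out.

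All genes that turned direction were members of a class that were not called. Without the block, the log2 fold change turned to 0.65 for His2B:CG17949, 0.068 for Vm34Ca and 0.013 for bru1. In the fit of all 9 libraries, the log2 fold change turned to 0.19 for His2B:CG17949 and -0.0011 for Klp10A. Relative to the median of all genes under total-count scaling, the log2 fold change turned to 0.0092 for Vm34Ca. With the stricter filter, the log2 fold change turned to 0.0028 for Vm34Ca. For genes that turned with 1 pair left out it ranged from -0.093 to 0.26 for pAbp, from -0.037 to 0.22 for Polr1A, from -0.085 to 0.39 for Hrb27C, from -0.44 to 0.0056 for sqd, from 0.089 to 0.38 for His2B:CG17949, from -0.40 to 0.11 for ctp, from -0.077 to 0.081 for Klp10A, from -0.20 to 0.18 for Vm34Ca, from -0.0056 to 0.23 for Vha55, from -0.032 to 0.20 for Uba1, from -0.044 to 0.17 for Cul1 and from -0.44 to 0.13 for bru1. The cause was not tested. Calls of single genes lost without the block or with 1 pair left out are given beside their values, and those lost under total-count scaling with the counts of calls. The fit of all 9 libraries ended the calls of bt, CG13742, Dark, lncRNA:CR42491, hpRNA:CR32205, CG5151, CG44242, CG8043, Saysd1, Chrac-16, JMJD7, mRpL10, SdhD, rhi, Uhg5, apolpp, eIF3c and Sdb (adjusted p between 6.99e-04 and 0.758), the stricter filter those of lncRNA:CR42491, CG8043, Saysd1, Chrac-16 and rhi (adjusted p between 0.0549 and 0.0674) and DESeq2 those of CG13742 and rhi (adjusted p between 0.0542 and 0.0653). At this depth the lower genes with few counts, such as CG13742, limit what a fold change can show.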
